A study of Homo sapiens with 6 samples.

Results

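The nuclear-encoded subunits of the mitochondrial respiratory chain were followed in native RNA immunoprecipitation sequencing (RIP-seq) of ORC1, in which an antibody captures a protein from lysate and the RNA recovered alongside is sequenced. ORC1 is the largest subunit of the origin recognition complex, which marks the places on DNA where replication starts. Genes were taken by symbol, namely those beginning with NDUFA, NDUFB, NDUFC, NDUFS, NDUFV, UQCR or ATP5, those beginning with COX and continuing with 4, 5, 6, 7 or 8, and SDHA, SDHB, SDHC, SDHD, CYC1 and CYCS. Assembly factors named NDUFAF and 37 pseudogene rows were left out. The rule took 87 of the 23013 genes in the table. Of these, 81 encoded subunits or cytochrome c, and 6 carried a matching symbol without being a subunit gene of this kind, among them 2 noncoding transcripts with symbols ending in AS1, a readthrough and a pseudogene.

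All libraries came from nuclei of HCT116, a human colorectal carcinoma cell line, untreated and growing asynchronously. The 3 inputs were nuclear lysate RNA taken without antibody, and the 3 ORC1 IPs were recovered with an antibody against endogenous ORC1, without crosslinking. Each input and ORC1 IP carries the number of its RIP replicate. The control used here was the input of this 1 line, and IgG libraries were not analysed here. Each library gives bulk RNA, in which single cells cannot be told apart. A lower value in ORC1 IP is a lower level relative to input and is not by itself a measure of expression in the cells.

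The respiratory chain sits in the inner mitochondrial membrane. Complexes I and II pass electrons from NADH and succinate to ubiquinone, complex III passes them to cytochrome c, and complex IV reduces oxygen. The proton gradient built by complexes I, III and IV drives complex V, the ATP synthase. A small set of subunits is encoded by mitochondrial DNA, and the rest are encoded in the nucleus, transcribed there and translated in the cytoplasm before import.

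Levels are given as normalised counts, which are the reads on a gene divided by a size factor of the library, and they are not corrected for gene length. Total reads on genes were 13703033 to 17248924 in the inputs and 25134156 to 36008733 in the ORC1 IPs. Replicates of a group differed far beyond counting noise, with a chi-square per degree of freedom of 49.5 to 676 between pairs of libraries. ORC1 IP 2 stood apart from the other libraries. Transcripts of the mitochondrial genome took 2.01% of its counts, against 0.0685% to 0.408% in the other 5 libraries, so counts are also given without it. The epithelial keratins and adhesion genes KRT8, KRT18, KRT19, EPCAM and CDH1 were read in every library, while VIL1 did not exceed 6.30. Of the markers of other cell types, the fibroblast collagen gene COL1A1 was at 161 to 298 in the inputs and 432 to 787 in the ORC1 IPs (log2 fold change 1.27 ± 0.39 SE, limma adjusted p = 0.0854), and ALB did not exceed 6.97.

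Transcripts of respiratory chain subunits were lower in ORC1 IP than in input in all 5 complexes by their median, and those of complex IV had the lowest median, though the difference between complexes was not tested. Of the 87 genes, 83 had a mean of at least 10 normalised counts and were tested. COX7A1, NDUFB2-AS1, ATP5J2-PTCD1 and ATP5J2LP fell under that limit. The log2 fold change of ORC1 IP over input was negative for 76 of the 83, or 91.6%, against 49.3% of the 16513 genes tested. Its median was -1.01, against 0.01 over all genes, and the medians of the replicate-wise differences were -0.94, -0.95 and -1.15 for replicates 1, 2 and 3. In 50 of the 83, or 60.2%, all 3 ORC1 IPs lay below all 3 inputs, which was the case for 13.5% of all genes. The opposite pattern, found in 12.7% of all genes, was present in 1 tested member, NDUFA6-AS1, a low noncoding transcript beside NDUFA6 that GENCODE v44 names NDUFA6-DT.

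By limma on log2 values, with Benjamini-Hochberg adjustment over all genes tested, 14 members were called lower in ORC1 IP at an adjusted p under 0.05. That is 16.9% of the 83, against 1.42% of all genes. They were NDUFA4, COX7A2, COX8A, COX7C, COX7A2L, SDHC, COX6C, NDUFB11, NDUFAB1, NDUFA8, COX6A1, UQCRH, NDUFS6 and NDUFA9. None was called higher, against 2.28% of all genes. At an unadjusted p under 0.05, 48 members were lower and 1 was higher, against 9.45% and 12.2% of all genes. On whole reads recovered from the values, edgeR called 16 members lower, against 1.31% of all genes, and DESeq2 called 32, against 3.92%. Neither called a member higher, while DESeq2 called 7.56% of all genes higher.

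The number of calls depended on single libraries and on scaling, whereas the median stayed between -1.23 and -0.87 in every setting tried. Without ORC1 IP 2, limma called 35 members lower, against 6.38% of all genes, and 1 higher, UQCRB, against 11.9%. Without input 1, input 2 or ORC1 IP 1 the lower calls were 9, 1 and 4, against 0.999%, 0.236% and 0.721% of all genes. Without input 3 or ORC1 IP 3 limma called 0 lower, against 0.139% of all genes in each case, with 31 and 49 members lower at an unadjusted p under 0.05. Scaling by total counts left 4 calls, against 0.581% of all genes. A correction for transcript length and GC content left 3, against 0.237%, and with the replicate number as a block it left 0, against 0.0249%, with 35 members lower at an unadjusted p under 0.05.

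**Figure D1:**
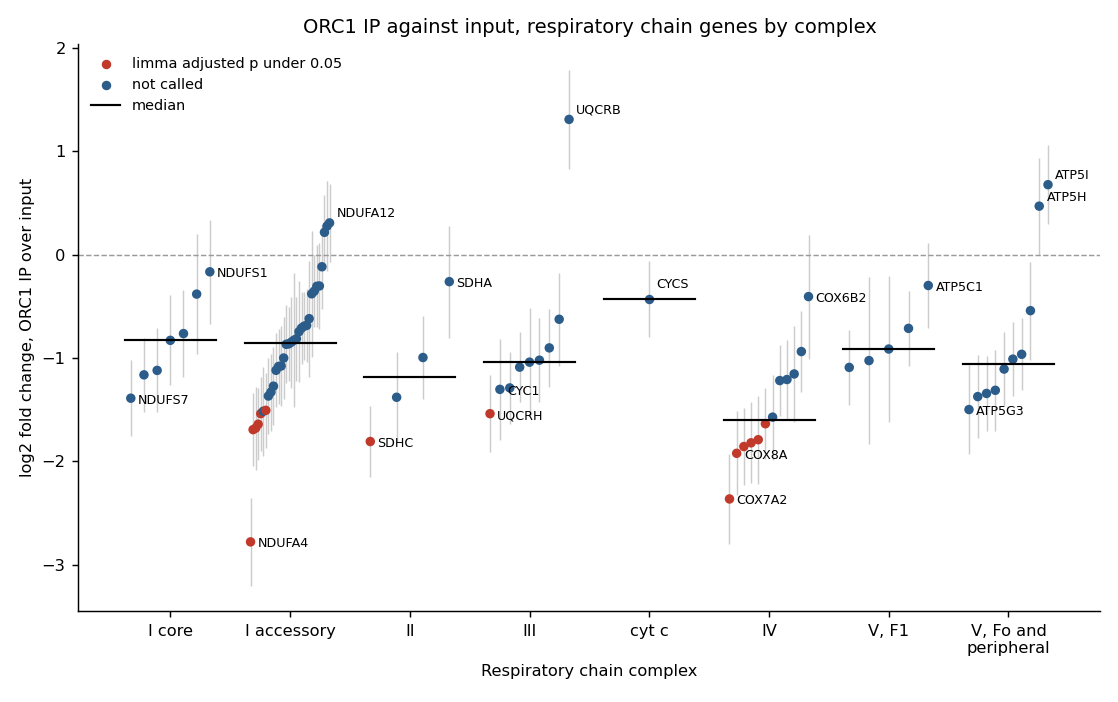
Log2 fold change of ORC1 IP over input for each tested subunit gene, grouped by complex; points are genes, grey bars the standard error of the limma fit over 3 inputs and 3 ORC1 IPs, black lines group medians, and red points have a limma adjusted p under 0.05. Complex IV has the lowest median, -1.60, and only 6 points lie above 0, UQCRB at 1.31 being the highest.

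All respiratory chain genes together took 0.889%, 0.893% and 1.24% of the normalised counts in inputs 1, 2 and 3, against 0.375%, 0.514% and 0.537% in ORC1 IPs 1, 2 and 3. The groups did not overlap. The mean share was 1.01% ± 0.202 (SD, n = 3) in input and 0.475% ± 0.0873 (SD, n = 3) in ORC1 IP. Complex IV went from 0.147% ± 0.0409 to 0.0488% ± 0.0214 (SD, n = 3 each), and the F1 part of complex V from 0.292% ± 0.0530 to 0.136% ± 0.0454 (SD, n = 3 each). ATP5B and ATP5A1, the catalytic beta and the alpha subunit of F1, made up 0.258% ± 0.0509 of input counts on their own (SD, n = 3). Without this pair the members took 0.749% ± 0.159 of input and 0.358% ± 0.0762 of ORC1 IP counts (SD, n = 3 each), so the lower share was not that of the F1 pair alone.

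**Figure D2:**
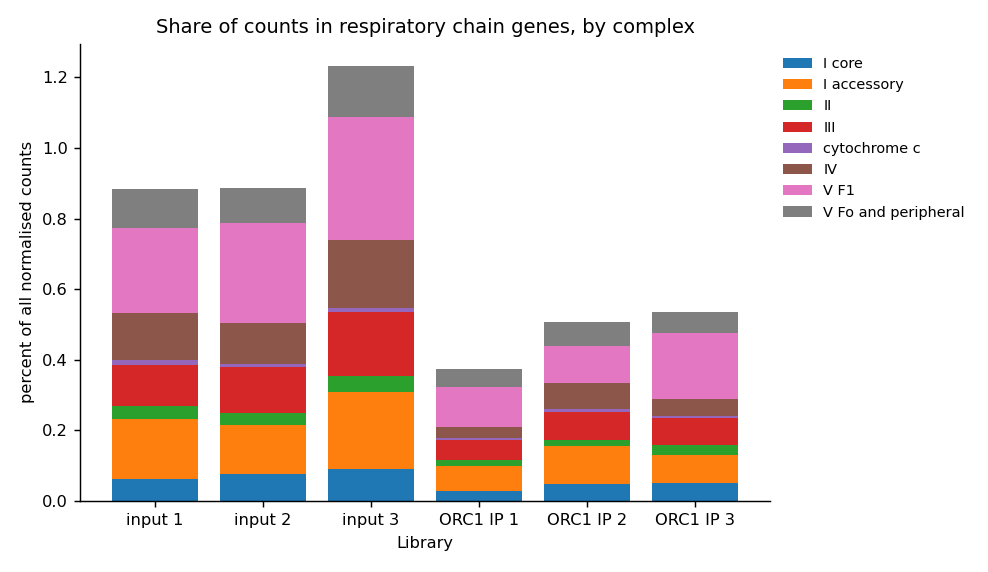
Percent of all normalised counts that fell on respiratory chain genes in each of the 6 libraries, stacked by complex and without the 6 non-subunit rows. Every ORC1 IP bar is shorter than every input bar, and the complex IV segment (brown) shrinks from a mean of 0.147% to 0.0488%.

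Complex IV, cytochrome c oxidase, had the lowest median of the 5 complexes, -1.60. It also had the shortest reading frames, with a median of 264 nt. The medians were 336 nt in complex III, 429 nt in V, 435 nt in I and 676.5 nt in II. Whether length accounts for the ranking was not tested. All 12 tested genes had a negative fold change, 6 were called lower, and in 11 the 3 ORC1 IPs lay below the 3 inputs. At an unadjusted p under 0.05, 11 were lower. With NDUFA4 and its paralog NDUFA4L2 counted here, 7 of 14 were called. NDUFA4 was first purified with complex I and is now held to be a subunit of complex IV. Without ORC1 IP 2 the median of the 12 was -1.62, with 9 called lower.

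The whole reading frames of NDUFA4, COX8A and COX7C are shown because their mRNAs were among the 4 with the lowest fold changes and because the size of the reading frame recurs in the comparison by length. They were read from the exons of the GENCODE v44 canonical transcript on GRCh38, with the start and stop codon in capitals. NDUFA4 lies at chr7:10931943-10940153 on the minus strand, COX8A at chr11:63974620-63976543 on the plus strand and COX7C at chr5:86617928-86620962 on the plus strand. The frames are 246, 210 and 192 nt long.
NDUFA4: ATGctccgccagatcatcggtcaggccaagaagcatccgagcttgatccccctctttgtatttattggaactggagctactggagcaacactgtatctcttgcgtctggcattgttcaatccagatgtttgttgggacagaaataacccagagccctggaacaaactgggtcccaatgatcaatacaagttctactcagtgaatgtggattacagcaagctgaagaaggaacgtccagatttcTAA
COX8A: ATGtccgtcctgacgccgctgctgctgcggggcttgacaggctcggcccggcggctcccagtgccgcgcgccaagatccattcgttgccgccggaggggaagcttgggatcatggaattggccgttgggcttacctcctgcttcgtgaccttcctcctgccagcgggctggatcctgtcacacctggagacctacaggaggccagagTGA
COX7C: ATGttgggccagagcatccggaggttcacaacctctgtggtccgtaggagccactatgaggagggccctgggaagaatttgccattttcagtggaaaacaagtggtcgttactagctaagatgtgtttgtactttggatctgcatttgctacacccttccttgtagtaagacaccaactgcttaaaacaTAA

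NDUFA4 had 716, 611 and 1148 normalised counts in inputs 1, 2 and 3, against 105, 189 and 76.8 in ORC1 IPs 1, 2 and 3. Every ORC1 IP lay far below every input. Its level was 6.86-fold lower in ORC1 IP (log2 fold change -2.78 ± 0.42 SE, limma adjusted p = 0.00858), and it was called in 17 of the 20 other settings. NDUFA4L2, the paralog induced by hypoxia, was read at 11.6, 14.2 and 21.1 in the inputs and 16.1, 15.1 and 5.96 in the ORC1 IPs. These groups overlapped, and the log2 fold change of -0.38 ± 0.61 (SE) did not pass the test.

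COX7A2, the widely expressed isoform of subunit VIIa, was at 2103, 2356 and 3484 in inputs 1 to 3 and at 268, 750 and 627 in ORC1 IPs 1 to 3. It was 5.14-fold lower in ORC1 IP (log2 fold change -2.36 ± 0.43 SE, limma adjusted p = 0.0170). Its relative COX7A2L, which takes part in joining complexes III and IV into supercomplexes, was at 1272, 1308 and 1789 and at 248, 595 and 457, a log2 fold change of -1.82 ± 0.39 (SE, adjusted p = 0.0292 by limma). Both had their lowest value in ORC1 IP 1 and no overlap between groups. The muscle isoform COX7A1 did not exceed 20.5 in any library and was not tested.

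COX8A, the widely expressed isoform of subunit VIII, had 2072, 1855 and 2872 normalised counts in the inputs and 386, 961 and 546 in the ORC1 IPs. COX7C, another small membrane subunit, had 2143, 1764 and 3114 in the inputs and 465, 676 and 786 in the ORC1 IPs. Both were lower in each ORC1 IP than in any input, with log2 fold changes of -1.92 ± 0.41 and -1.86 ± 0.38 (SE, limma adjusted p = 0.0271 and 0.0239). COX6C was at 2064, 1160 and 2394 in the inputs against 307, 687 and 654, and its log2 fold change was -1.79 ± 0.42 (SE, adjusted p = 0.0405 by limma). COX6A1, the non-muscle isoform of subunit VIa, was at 916, 804 and 1320 in the inputs and varied little among the ORC1 IPs, at 304, 305 and 347 (log2 fold change -1.64 ± 0.34 SE, limma adjusted p = 0.0264). Of the 50-base stretches in COX6A1, 47.1% also occur in other transcripts, and in COX8A 28.5% do, so the counts of these genes are less certain.

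The other complex IV genes did not pass the test. COX4I1, which encodes subunit IV and had the highest count of the complex, was at 5954, 8123 and 9986 in the inputs and 3249, 3191 and 4221 in the ORC1 IPs, with a log2 fold change of -1.15 ± 0.46 (SE, adjusted p = 0.167 by limma). COX5B, COX5A, COX6B1 and COX7B likewise had no overlap between the groups, at log2 fold changes of -1.57, -1.22, -1.21 and -0.94. The testis isoform COX6B2, at 5.76 to 16.3 in all libraries, was the exception, with overlapping groups and a log2 fold change of -0.41 ± 0.60 (SE).

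**Figure D3:**
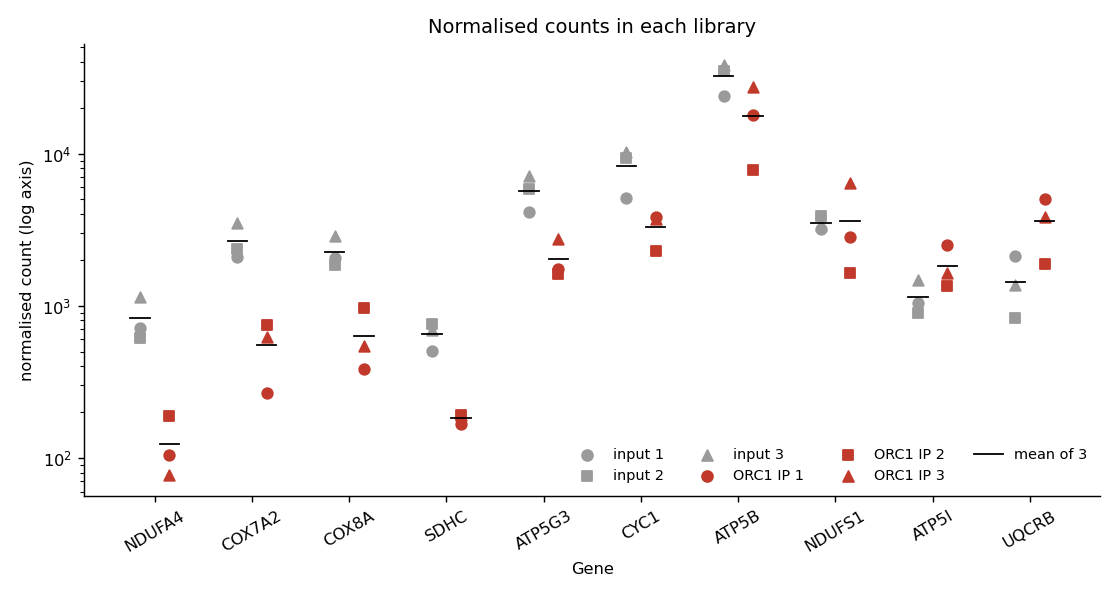
Normalised counts (log axis) of 10 respiratory chain genes in each library; grey symbols are inputs, red symbols ORC1 IPs, circles, squares and triangles mark replicates 1, 2 and 3, and black lines are means of 3. From NDUFA4 to CYC1 all ORC1 IPs lie below all inputs, ATP5B and NDUFS1 overlap, and UQCRB and ATP5I have higher means in ORC1 IP without separating from the inputs.

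Complex I, NADH dehydrogenase, has core subunits that carry the flavin, the iron-sulfur clusters and the proton pumps, and many accessory subunits around them. The pumping core subunits are encoded by mitochondrial DNA. For the 7 nuclear core genes the median of the log2 fold changes was -0.83. All 7 values were negative, 3 had no overlap between groups, and limma called 0 of them, with 3 lower at an unadjusted p under 0.05; edgeR called 1 and DESeq2 called 2. Among the 32 accessory genes the median was -0.86, with 6 called lower, NDUFA4 among them, and 18 without overlap. Without ORC1 IP 2 the lower calls were 3 of 7 and 11 of 32, and the medians were -0.57 and -0.99.

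Core subunits ranged from NDUFS7 to NDUFS1. NDUFS7, which holds the terminal iron-sulfur cluster next to the quinone site, was at 564, 1001 and 1180 in the inputs and at 314, 331 and 355 in the ORC1 IPs. Its groups were apart, and its log2 fold change of -1.39 ± 0.37 (SE) had a limma adjusted p of 0.0561. NDUFS1, the large iron-sulfur subunit, was at 3207, 3871 and 3393 in the inputs and at 2822, 1652 and 6382 in the ORC1 IPs. ORC1 IP 3 was above every input and ORC1 IP 2 below every input, so its log2 fold change of -0.17 ± 0.51 (SE) was smaller than the spread and turned to 0.29 without ORC1 IP 2. NDUFV2 was read at 21.6 to 102, and 89.4% of its 50-base stretches also occur elsewhere.

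Called accessory subunits other than NDUFA4 had log2 fold changes of -1.51 to -1.69. NDUFB11 was at 1004, 1459 and 1788 in the inputs and 444, 355 and 490 in the ORC1 IPs (-1.69 ± 0.35 SE, limma adjusted p = 0.0268). NDUFAB1, the mitochondrial acyl carrier protein, which also serves fatty acid and iron-sulfur cluster synthesis, was at 1989, 2737 and 3279 against 707, 602 and 1277 (-1.68 ± 0.40 SE, limma adjusted p = 0.0415). NDUFA8 was at 1083, 1040 and 1513 against 334, 339 and 494 (-1.64 ± 0.35 SE, limma adjusted p = 0.0276). In each of the 3 the highest ORC1 IP was below the lowest input. NDUFS6 and NDUFA9 followed at -1.54 and -1.51; NDUFA9 was not called with the replicate block (limma adjusted p = 0.0535), whereas NDUFA1, at -1.51, had a limma adjusted p of 0.0675 without it and 0.0493 with it.

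A few accessory genes did not share the direction. NDUFA12 was at 483, 374 and 479 in the inputs and 827, 382 and 517 in the ORC1 IPs, a log2 fold change of 0.31 ± 0.37 (SE). NDUFS4 and NDUFV3 had 0.27 and 0.21. In each of these the groups overlapped and ORC1 IP 1 was the highest library. NDUFB10 was at 2232, 2238 and 3748 in the inputs and 2599, 1998 and 1903 in the ORC1 IPs, with a log2 fold change of -0.31 ± 0.40 (SE) that reversed to 0.13 after the correction for length and GC.

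Complex II, succinate dehydrogenase, links the chain to the tricarboxylic acid cycle and has its 4 subunits encoded in the nucleus. The median over its 4 genes was -1.19 on the log2 scale, with 1 called lower, 3 lower at an unadjusted p under 0.05 and, without ORC1 IP 2, 2 called lower. SDHC, an anchor that helps hold the heme, was at 503, 760 and 697 in the inputs and at 167, 192 and 192 in the ORC1 IPs. It was 3.50-fold lower in ORC1 IP (log2 fold change -1.81 ± 0.34 SE, limma adjusted p = 0.0186). The other anchor, SDHD, was at 793, 476 and 591 against 121, 344 and 302 (-1.38 ± 0.44 SE, limma adjusted p = 0.0939). Both anchors had their groups apart, though only SDHC passed the test.

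The iron-sulfur subunit SDHB was at 2312, 2534 and 3148 in the inputs and 1701, 830 and 1647 in the ORC1 IPs, without overlap and with a log2 fold change of -0.995 ± 0.402 (SE, adjusted p = 0.171 by limma). SDHA, the flavoprotein that oxidises succinate, was at 2723, 3645 and 3922 in the inputs and 3694, 1165 and 5247 in the ORC1 IPs. Its groups overlapped, and its log2 fold change of -0.26 ± 0.54 (SE) became 0.38 without ORC1 IP 2. SDHA has near-identical copies, and 73.6% of its 50-base stretches also occur in other transcripts.

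Complex III, the cytochrome bc1 complex, had a median of -1.04 over 9 genes, with 1 called lower and 5 without overlap. At an unadjusted p under 0.05, 6 were lower; DESeq2 called 3 lower, and limma without ORC1 IP 2 called 4 lower and 1 higher. UQCRH, the hinge protein that binds cytochrome c1, was at 2002, 1617 and 2720 in the inputs and 538, 954 and 698 in the ORC1 IPs (log2 fold change -1.54 ± 0.37 SE, limma adjusted p = 0.0448, or 0.0622 with the replicate block). CYC1, which encodes cytochrome c1, was at 5091, 9379 and 10239 against 3812, 2288 and 3727. Its groups did not overlap, but its log2 fold change of -1.30 ± 0.49 (SE) did not pass the test (limma adjusted p = 0.143). The core proteins UQCRC1 and UQCRC2 and the Rieske protein UQCRFS1 had log2 fold changes of -1.04, -0.63 and -1.02 with overlapping groups, whereas the small subunits UQCR10, UQCR11 and UQCRQ, at -1.29, -1.09 and -0.90, had none.

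UQCRB, the ubiquinone-binding protein of the complex, had the highest fold change of all subunit genes. It was at 2113, 826 and 1376 in the inputs and 5002, 1889 and 3851 in the ORC1 IPs. Each ORC1 IP was above the input of its own number, but ORC1 IP 2 was below input 1. The log2 fold change was 1.31 ± 0.48 (SE) and did not pass the test (limma adjusted p = 0.136), except without ORC1 IP 2 and by DESeq2 with the replicate block. Its canonical transcript in GENCODE v44 is 8459 nt long for a reading frame of 336 nt, and the antisense gene UQCRB-AS1 overlaps it on the other strand. Neither trait is particular to UQCRB. NDUFA9, called lower, has a canonical transcript of 8356 nt, and UQCR10 and UQCRQ also overlap a gene on the other strand. Cytochrome c itself, CYCS, was at 2640, 2033 and 1725 in the inputs and 1922, 1320 and 1496 in the ORC1 IPs, with overlapping groups and a log2 fold change of -0.43 ± 0.37 (SE).

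Complex V had a median of -1.01 over 15 genes, with 9 without overlap, yet limma called 0 of them. At an unadjusted p under 0.05, 8 were lower; edgeR called 0 and DESeq2 called 6, and limma without ORC1 IP 2 called 6. In the F1 head, ATP5B, the catalytic beta subunit, had the highest count of all members, at 23879, 35077 and 38466 in the inputs and 18055, 7748 and 27323 in the ORC1 IPs. ORC1 IP 3 exceeded input 1, and the log2 fold change was -1.03 ± 0.80 (SE, adjusted p = 0.497 by limma). ATP5C1, the gamma subunit that forms the rotating shaft, was at 3223, 2785 and 3049 against 3260, 1612 and 2796. Its log2 fold change of -0.30 ± 0.41 (SE) became 0.0023 without ORC1 IP 2. ATP5D, the delta subunit of that shaft, was at 1768, 2528 and 2930 against 1257, 1039 and 1036, with the groups apart (-1.09 ± 0.36 SE, limma adjusted p = 0.107).

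In the membrane part, the proton-carrying c ring is built from 1 polypeptide that 3 genes encode. ATP5G1, ATP5G2 and ATP5G3 differ in their import signals and share a C-terminal stretch of 77 residues. The coding bases of that stretch are shown because the same protein is written with different codons, which bears on whether reads can be assigned to 1 gene. They come from GENCODE v44 on GRCh38, and capitals mark the 57 of 231 positions, or 24.7%, at which the 3 genes are not all alike.
ATP5G1: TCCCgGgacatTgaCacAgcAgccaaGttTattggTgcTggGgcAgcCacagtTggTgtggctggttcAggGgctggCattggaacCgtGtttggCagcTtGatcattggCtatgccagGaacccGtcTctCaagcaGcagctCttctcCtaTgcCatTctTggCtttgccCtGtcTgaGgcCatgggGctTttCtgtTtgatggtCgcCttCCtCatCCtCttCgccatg
ATP5G2: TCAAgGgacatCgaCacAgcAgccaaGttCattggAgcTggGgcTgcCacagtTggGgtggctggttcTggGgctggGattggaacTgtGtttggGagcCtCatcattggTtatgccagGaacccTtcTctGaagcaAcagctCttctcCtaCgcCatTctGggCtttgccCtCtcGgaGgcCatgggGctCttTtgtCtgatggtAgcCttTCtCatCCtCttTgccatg
ATP5G3: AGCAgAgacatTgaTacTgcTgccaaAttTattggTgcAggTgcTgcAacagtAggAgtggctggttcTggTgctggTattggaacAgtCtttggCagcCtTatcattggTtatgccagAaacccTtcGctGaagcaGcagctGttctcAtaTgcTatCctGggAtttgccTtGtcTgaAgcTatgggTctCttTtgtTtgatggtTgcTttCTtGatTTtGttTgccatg

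Over this stretch ATP5G1 and ATP5G2 were identical at 88.3% of bases, and ATP5G3 was identical to either at 80.1%. At most 4.97% of the 50-base stretches of each transcript occur in any other transcript. ATP5G1 was at 2263, 2999 and 3925 in the inputs and 903, 1338 and 1438 in the ORC1 IPs. ATP5G2 was at 2396, 2372 and 3351 against 936, 1010 and 1232. ATP5G3 was at 4160, 5874 and 7108 against 1739, 1619 and 2732. In all 3 genes every ORC1 IP lay below every input. Their log2 fold changes were -1.31 ± 0.39, -1.34 ± 0.36 and -1.50 ± 0.43 (SE), which did not pass the test (limma adjusted p = 0.0776, 0.0580 and 0.0705).

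The remaining Fo and stalk genes included a pair with positive values. ATP5I, which encodes the small e subunit, was at 1036, 894 and 1470 in the inputs and 2510, 1340 and 1649 in the ORC1 IPs. ORC1 IP 2 lay between inputs 1 and 3, and the log2 fold change of 0.68 ± 0.38 (SE) did not pass the test (limma adjusted p = 0.335). ATP5H, the d subunit of the stalk, had 0.47 ± 0.47 (SE). On the opposite strand ATP5I overlaps MYL5, and ATP5H overlaps KCTD2 and RN7SL573P. ATP5L, ATP5O, ATP5J and ATP5J2 also overlap genes on the opposite strand. Their log2 fold changes were -1.37, -1.11, -1.01 and -0.96, with no overlap in values between the groups.

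The sources used here do not state whether the counting used the strand, so reads from genes that overlap on opposite strands may be mixed. Of the 80 tested subunit genes, 34 overlap a gene on the other strand in GENCODE v44. These were 2 of the 14 called lower, 19 of the 35 that had no overlap in values but were not called, and 13 of the 31 whose groups overlapped, 3 of these with a positive fold change. A further limit is sequence shared with other transcripts, which exceeded 20% of 50-base stretches in 16 of the 80, among them NDUFA13 (82.4%), NDUFA7 (75.9%), NDUFB8 (73.0%), NDUFA11 (65.4%) and ATP5O (61.2%). Of the 14 called lower, 3 exceeded it, namely COX6A1 (47.1%), UQCRH (33.4%) and COX8A (28.5%). Of the non-subunit rows, ATP5SL had a log2 fold change of -0.91 and ATP5S of -0.29, and NDUFA6-AS1 was read at only 20.05 to 51.8.

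Respiratory chain mRNAs have short reading frames, and length moved with the fold change over the whole table. The median reading frame was 426 nt in the members and 1428 nt in all tested genes that have one, and the median canonical transcript was 916 nt against 2752 nt. Across 12537 genes, Spearman's rho of coding length with the fold change was 0.499, and with the replicate-wise differences it was 0.471, 0.0431 and 0.595 for replicates 1, 2 and 3. Across the 80 subunit genes it was 0.186, with 0.428, -0.409 and 0.367 by replicate, so the sign differed in replicate 2. Genes of 1 library share its depth and composition, and these values are descriptive.

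Length classes, chosen after the values were seen, gave the members and all genes side by side. Below 300 nt the median log2 fold change was -1.0 for 21 subunit genes and -0.54 for all 230 genes of that length, and 6 of the 21 were called lower against 8.70% of the class. From 300 to 599 nt it was -1.11 for 38 subunit genes and -0.48 for 1272 genes, with 7 of the 38 called against 4.01%. From 600 to 899 nt the medians were -1.02 for 9 and -0.31 for all, and from 900 to 1499 nt they were -0.80 for 8 and -0.15 for all. For the 4 subunit genes of 1500 to 2999 nt the median was -0.59, where that of all genes was 0.20. The subunit genes had lower medians than all genes in each of the 5 classes that hold them. Whether length accounts for their fold changes was not tested. The correction for length and GC used the longest annotated transcript of each gene, not the reading frame. After it the median of the members was -0.87, with 3 called lower, or 0 with the replicate block.

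**Figure D4:**
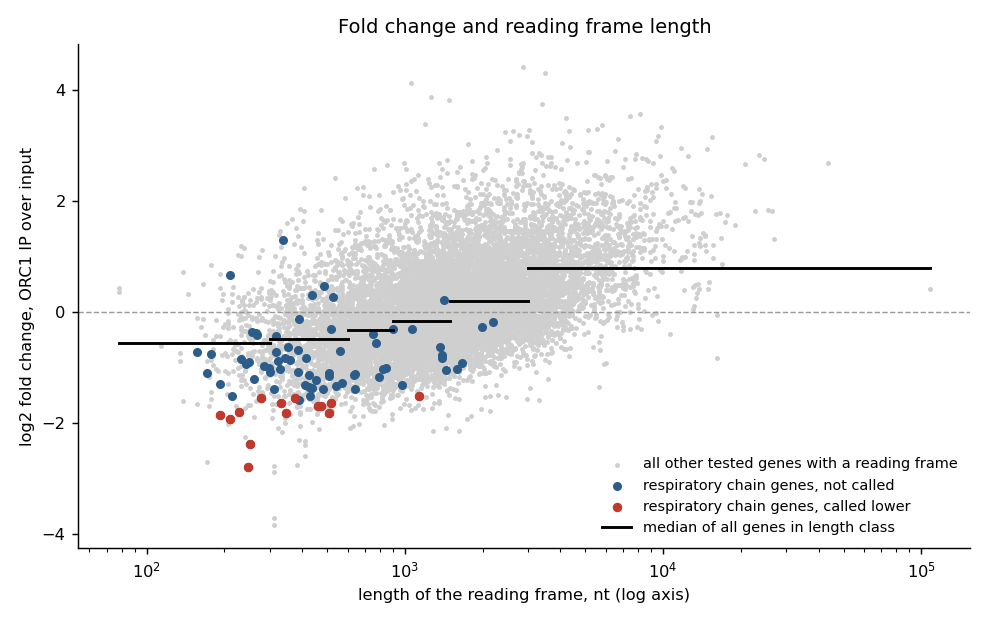
Log2 fold change of ORC1 IP over input against reading frame length (log axis) for 12537 tested genes (grey), with respiratory chain subunit genes in blue, or red where limma called them lower; black lines are medians of all genes in each length class. The grey cloud climbs from a median of -0.54 below 300 nt to 0.79 at 3000 nt and over, and most respiratory chain genes lie below the line of their class.

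The study searched the largest transcripts of ORC1-bound genes for enriched motifs and described tandem GAA repeats in many of them. Here the canonical transcripts were searched for the exact letters GAAGAAGAA, so the shares cannot be set beside those of the study. It was present in 6 of the 83 tested members, or 7.23%, against 13.0% of all genes tested that have a canonical transcript. The members have shorter canonical transcripts, with a median of 916 nt against 2752 nt, and these shares were not adjusted for length. The median density of GAA was 20.3 per kb in members and 20.4 per kb in all genes.

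Many respiratory chain genes are known targets of the transcription factors NRF1 and GABP, an ETS family factor. RefSeq promoters on GRCh38.p14, from 250 bases before to 50 after each start, matched 65 of the 81 subunit genes and 27305 genes in all. These 27305, called all genes in this paragraph, were not limited to the genes tested here. The letters GCATGCGC, the core of the NRF1 motif, were found on either strand in 15 of the 65 (23.1%) and in 3.68% of all genes. CCGGAAGT, an ETS core, was found in 11 (16.9%) and in 4.95%. Either was present in 23 (35.4%), against 8.25% of all genes. Of the 14 genes called lower, 11 were matched and 5 held a match, namely COX6A1, COX8A, NDUFA8, NDUFS6 and UQCRH. The matched genes COX7A2, COX7A2L, COX7C, NDUFA9, NDUFAB1 and NDUFB11 had none. The promoter of COX8A is shown as an example of a match over the 120 bases before its start, chr11:63974500-63974619 on the plus strand, with the match to the ETS core, here on the other strand, in capitals.
COX8A promoter: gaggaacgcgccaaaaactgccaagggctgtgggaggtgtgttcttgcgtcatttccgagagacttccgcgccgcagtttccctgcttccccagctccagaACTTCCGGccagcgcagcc

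Other mitochondrial gene lists were compared to place the respiratory chain. With all 6 libraries limma called no gene of any of them higher, against 2.28% of all genes. For the counts below, the shares over all genes were 1.42% called lower and 13.5% without overlap on the lower side. Without ORC1 IP 2, limma called 6.38% of all genes lower and 11.9% higher. DESeq2 called 3.92% lower and 7.56% higher, edgeR called 1.31% lower, and 9.45% were lower at an unadjusted p under 0.05. Most assembly factors help build the complexes without being part of them. Over 40 genes of this list the median log2 fold change was -0.35. Of these, 11 (27.5%) were without overlap on the lower side and 1 (2.5%) was called lower. Without ORC1 IP 2, 5 were called lower and 1 higher. The gene called with all libraries was COA3, which acts early in complex IV assembly, at 412, 479 and 683 in the inputs and 72.5, 159 and 153 in the ORC1 IPs (-2.08 ± 0.41 SE, limma adjusted p = 0.0231). Enzymes of the tricarboxylic acid cycle had a median of -0.54 over 17 genes, with 2 (11.8%) without overlap, near the share of all genes. Of the 17, 0 were called lower. At an unadjusted p under 0.05, 1 was lower, edgeR called 0 and DESeq2 called 1. Their replicate-wise medians were -0.20, -1.30 and 0.05, and without ORC1 IP 2 the median was -0.23, with 0 called lower and 1 higher. Regulators of mitochondrial biogenesis had a median of 0.36 over 11 genes, with 0 called lower, 1 at an unadjusted p under 0.05, and 0 and 1 by edgeR and DESeq2. Without ORC1 IP 2 their median was 0.48, with 1 called lower and 2 higher.

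Genes of the import machinery had a median of -0.74 over 21 genes. TOMM22, a receptor of the outer membrane, and TIMM10, a chaperone between the membranes, were called lower, or 9.52%, against 1.42% of all genes. Leaving out ORC1 IP 2 gave 7 lower and 1 higher call, against 6.38% and 11.9% of all genes. Mitochondrial ribosomal proteins had a median of -0.72 over 74 genes. Of these, 4 (5.4%) were called lower and 42 (56.8%) were without overlap, against 1.42% and 13.5% of all genes. DESeq2 called 17 of them lower, against 3.92% of all genes, and limma without ORC1 IP 2 called 21, against 6.38%. Cytoplasmic ribosomal proteins and their paralogs had a median of -0.70 over 79 genes, with 2 (2.53%) called lower and 31 (39.2%) without overlap. DESeq2 called 19 of these lower and 2 higher, and limma without ORC1 IP 2 called 29 lower and 2 higher. All 3 lists lay below the median of all genes, and the respiratory chain subunits had the lowest median of the lists with all 6 libraries, -1.02 over 80 genes. Without ORC1 IP 2 it was -1.05, and that of the mRNAs of the mitochondrial genome was lower, at -1.09. The lists also differed in reading frame length. Its median was 420 nt in the subunits, 459 nt in cytoplasmic and 594 nt in mitochondrial ribosomal proteins, and 477 nt in import. It was 787 nt in mitochondrial genome mRNAs, 858 nt in assembly factors, 1272 nt in regulators and 1359 nt in the tricarboxylic acid cycle. Neither the difference between lists nor its relation to length was tested.

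The 13 mRNAs that the mitochondrial genome contributes to the same complexes had a median of 0.02, with 0 called by limma, edgeR or DESeq2 in either direction and 0 at an unadjusted p under 0.05. Their replicate-wise medians were -0.60, 2.64 and -1.30, so replicate 2 went the opposite way to replicates 1 and 3. When ORC1 IP 2 was left out, 6 were called lower, against 6.38% of all genes. The nuclear-encoded partners had a negative median in each of the 3 replicates.

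**Figure D5:**
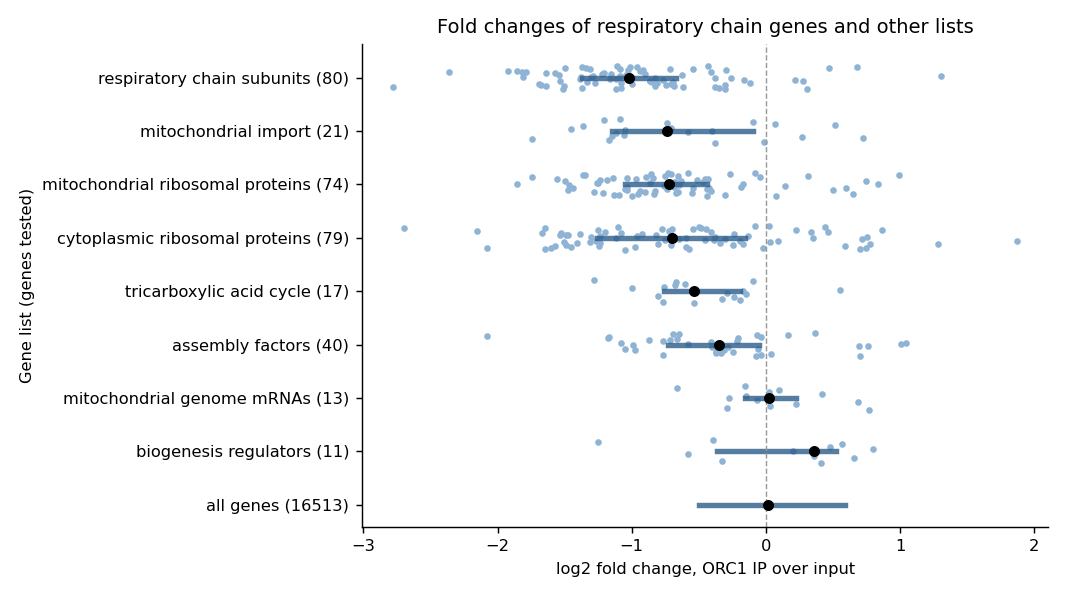
Log2 fold change of ORC1 IP over input for the genes of each list (light points), with the median (black dot) and the range from the lower to the upper quartile (bar); tested genes in parentheses. With all 6 libraries respiratory chain subunits have the lowest median, -1.02, though not without ORC1 IP 2 (-1.05, against -1.09 for mitochondrial genome mRNAs), and all genes lie around 0.01. The lists differ in median reading frame, which was 420 nt in respiratory chain subunits and 1359 nt in the tricarboxylic acid cycle.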

How the data were processed

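Native RIP-seq libraries of 3 inputs and 3 ORC1 IPs from HCT116 nuclei were analysed. Per the study's methods and the labels, the authors used Trimmomatic for trimming, STAR for alignment to hg19, featureCounts for counts per Ensembl gene after dropping GL contigs, and DESeq2 against input. The sources used here do not state how multi-mapping reads and strand were handled. The deposited per-library values are a signal, made by dividing gene counts by a size factor of the library, and all of them (100%) came back as whole reads within 0.001 of a read. The authors also deposited their own comparison (log2 fold changes with their standard error, a test score, p-values and adjusted p-values), which was not used.

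Log2(value + 1) was fitted for the 16513 genes whose mean reached 10, with limma 3.58.1 (R 4.3.3, intensity trend, no block, two-sided, Benjamini-Hochberg over all genes tested). edgeR 4.0.16 and DESeq2 1.42.0 on the recovered reads were alternatives. Fold changes on this scale understate those of low genes. On simulated data for this comparison (16509 genes, 99 changed at each fold), limma recovered 100% of 4-fold and 53.5% of 2-fold changes. The simulated counts had the same fixed dispersion in every gene and library, not estimated from these data, so recovery in the real libraries may be lower. Group labels tie an input and an ORC1 IP of 1 number to the same RIP replicate, but the deviations of same-numbered libraries correlated at -0.322, -0.240 and 0.215. The study describes the RIPs as triplicate experiments, and p-values measure the spread between these libraries. Ensembl IDs matched GENCODE v44 for all 87 members. The members and lists were chosen with earlier results of these data known, and no test was made over a list. S6 kinases, antisense transcripts, a pseudogene and TIMMDC1, which is counted with the assembly factors, were taken out of the lists matched by symbol after their values were seen. Named genes were the called members with the 10 largest fold changes, the highest, lowest and highest-count gene of each group, isoform families and complex II; other members were named after their values were seen.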

Additional observations from a re-analysis of the deposited data

How the results depend on the processing

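Of the 14 lower calls, 4 remained after scaling by total counts, which moved the median of all genes to -0.19, 3 after the length and GC correction and 0 after that correction with the replicate block; DESeq2 called 32, or 23 with the replicate block. Leaving out single libraries gave 0 to 35 lower calls and 0 to 1 higher. Pseudocounts of 0.5 and 5, no filter, a filter at a mean of 50, TMM, upper quartile scaling, edgeR, and limma and edgeR with the replicate block gave 13 to 17. With the limma block 13 members were lower, 12 of them shared with the 14; it ended the calls of UQCRH and NDUFA9 and added NDUFA1. With all 6 libraries the only higher call in any setting was 1, UQCRB, by DESeq2 with the replicate block.

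The median log2 fold change of -1.01 was -1.23 with total counts and -0.87 with the length and GC correction, with or without the replicate block, and -1.13 to -0.88 without single libraries. The difference in the share of counts, -0.53 percentage points, was -0.59 to -0.42. Signs reversed for NDUFS1 (0.0338 by edgeR, 0.0522 by DESeq2, and -0.69 to 0.29 without single libraries), NDUFB10 (0.13 with the length and GC correction, also with the replicate block), and, without single libraries, SDHA (-0.71 to 0.38), ATP5C1 (-0.51 to 0.0023) and NDUFA4L2 (-0.61 to 0.0384). Among the leave-outs, positive values came without ORC1 IP 2, or without ORC1 IP 3 for NDUFA4L2. The causes were not tested. With 3 libraries a group, 2-fold changes were recovered in 53.5% of simulated cases, where all genes and libraries had the same fixed dispersion. Recovery in the real libraries was not measured and may be lower, so genes not called may still differ.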
